A study of Homo sapiens with 3 samples.

Results

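Among the genes measured in H660 cells treated with the HSP70 inhibitor JG231 were 8 that encode secreted factors known for their induction under cellular stress: GDF15, FGF21, INHBE, STC2, VEGFA, ADM, ANGPTL4 and AREG. They were chosen by name, with earlier results of these data known, and each was found in 1 row of a table of 58735 genes. H660 (NCI-H660) is a human cell line of neuroendocrine prostate cancer (NEPC), here parental cells, and JG231 is an allosteric inhibitor that holds HSP70 on the proteins it binds. Cells received vehicle (DMSO), 2.5 μM JG231 or 5 μM JG231 for 24 h, in a shared medium that per the methods held hydrocortisone and β-estradiol, and 1 library of RNA was sequenced for each condition. With 1 library per condition the differences have no replicate check, so no p-value or standard deviation is given. Both JG231 libraries are set against the same DMSO library, so the results of the doses are not independent of each other.

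These factors carry word of stress from a cell to its surroundings or to distant organs. When misfolded proteins, amino acid shortage or other insults lead to phosphorylation of the translation factor eIF2α, the integrated stress response (ISR) lowers general translation and favours the transcription factor ATF4, whose targets include several of these genes. Others of the group are also known targets of the hypoxia-inducible factors, of p53 or of the PPAR nuclear receptors, and AREG is known to respond to cAMP signaling.

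Values are FPKM, fragments scaled to transcript length and to the mapped fragments of the library. By the spacing of the values, the depth was about 16.08 M fragments for DMSO, 20.37 M for 2.5 μM and 24.05 M for 5 μM. Mitochondrial genes held 39.8%, 24.1% and 28.8% of all FPKM in these libraries, in the same order. The neuroendocrine markers SYP, CHGA, ENO2, NCAM1 and INSM1 were between 3.40 and 45.99 FPKM in every library, while MYCN stayed at 0.693 FPKM or less. The cell type label reads prostatic adenocarcinoma, but KLK3, KLK2 and TMPRSS2, markers of luminal prostate cells, were at 0.315 FPKM or less throughout. The endothelial marker CDH5 was at 4.916 FPKM with vehicle and at 0.476 and 0.581 FPKM with JG231, PECAM1 was at 0, and their part in the results was not tested. H660 is a cell line and not a tissue. Whether fewer of its cells held a transcript or each held less cannot be told apart in these libraries.

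Promoter sequences are shown for the members that stand at the ends of the range of change and for FGF21, since the letters that ATF4, CREB and related factors are known to bind differ among them. The table of RefSeq promoters used here matched 6 of the 8 members, and INHBE and VEGFA were not analysed. Each sequence is the 250 bases before the start of transcription in GRCh38.p14, on the strand of the gene, and capitals mark the motifs that a search of both strands found. FGF21 lies at chr19:48755274-48755523, AREG at chr4:74444886-74445135, GDF15 at chr19:18385908-18386157 and ANGPTL4 at chr19:8363905-8364154, all on the plus strand.
FGF21: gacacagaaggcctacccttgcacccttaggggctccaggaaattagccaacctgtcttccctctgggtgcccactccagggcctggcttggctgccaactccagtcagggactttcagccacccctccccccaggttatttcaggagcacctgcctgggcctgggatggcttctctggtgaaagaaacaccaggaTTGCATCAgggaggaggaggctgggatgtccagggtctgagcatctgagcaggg
AREG: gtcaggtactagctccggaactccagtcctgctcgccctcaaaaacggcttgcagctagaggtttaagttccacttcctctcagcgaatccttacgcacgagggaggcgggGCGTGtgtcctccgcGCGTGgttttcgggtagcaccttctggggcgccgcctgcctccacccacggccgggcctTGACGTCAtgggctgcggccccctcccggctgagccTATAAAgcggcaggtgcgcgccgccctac
GDF15: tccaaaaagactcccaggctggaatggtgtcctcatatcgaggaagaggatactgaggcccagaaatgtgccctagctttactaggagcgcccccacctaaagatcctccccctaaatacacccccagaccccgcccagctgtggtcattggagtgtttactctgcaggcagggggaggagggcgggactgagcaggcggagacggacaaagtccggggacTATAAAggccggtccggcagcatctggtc
ANGPTL4: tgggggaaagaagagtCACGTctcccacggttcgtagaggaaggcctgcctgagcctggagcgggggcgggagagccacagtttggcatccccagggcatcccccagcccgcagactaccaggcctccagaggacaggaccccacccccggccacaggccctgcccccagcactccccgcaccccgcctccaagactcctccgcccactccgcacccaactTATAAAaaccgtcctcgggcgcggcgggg

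The capitals in FGF21 are the composite element of C/EBP and ATF factors, TGATGCAA, read on the minus strand from position -54 to -47 before the start. It was found in none of the other 5 promoters of the group and in 0.772% of 35116 promoters of the same length. AREG alone held the full cAMP response element TGACGTCA, from -65 to -58, a motif of 1.65% of promoters. AREG also held the hypoxia core GCGTG at -139 and at -124, as did STC2 at 3 places and ADM at 1, against 32.2% of all promoters. In ANGPTL4 the capitals near the 5′ end are the other hypoxia core, ACGTG, on the minus strand (18.5% of promoters). The TATA box core TATAAA was present from -29 to -24 in AREG, GDF15 and ANGPTL4 and from -27 to -22 in ADM, so in 4 of 6 promoters, against 10.7% of all. A match of letters is a description of the sequence and not evidence of binding.

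Changes are log2 ratios of FPKM with 0.1 added, and a gene was counted as higher or lower when its FPKM was over 1 in either library and its log2 change passed 0.25 in size. These cut-offs are from the study's methods, which also kept genes that go from or to 0, whereas here such a gene had to reach 1 FPKM as well, and FGF21 did not. By this rule 36.5% of 15765 genes were higher and 45.1% lower at 5 μM against DMSO, and 36.4% were higher and 43.4% lower of 15746 genes at 2.5 μM against DMSO. With a change of more than 2-fold the shares were 14.7% higher and 24.3% lower at 5 μM, and 12.9% and 21.7% at 2.5 μM. The median log2 change of all genes tested was -0.11 at 5 μM and -0.08 at 2.5 μM. The balance depends on the filter. Of the genes called at 5 μM, 44.7% were higher by this rule and 62.2% with a mean FPKM of at least 5, where the median was 0.204.

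Of the 8 members, 7 passed the filter and FGF21 did not. At 5 μM, 5 of the 7 were higher, ANGPTL4 was lower and ADM was neither, with a median log2 change of 1.68 over the 7. At 2.5 μM, 6 of the 7 were higher and ANGPTL4 was lower, with a median of 2.08. The counts of higher members depend on scale: STC2 at 5 μM was under the threshold with a pseudocount of 1 (0.238) and with a common FPKM sum (0.169), and ADM at 2.5 μM was under it with that sum taken without mitochondrial and small RNA genes (0.247), which left 4 and 5 higher. The same 4 genes, GDF15, INHBE, VEGFA and AREG, were more than 2-fold higher at both doses. Both counts of higher genes are larger shares of the 7 than the 36.5% and 36.4% of all genes, and with 7 genes from 1 library per condition no test was made of that. The members were also chosen with earlier results of these data known, so these shares are a description only.

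**Figure D1:**
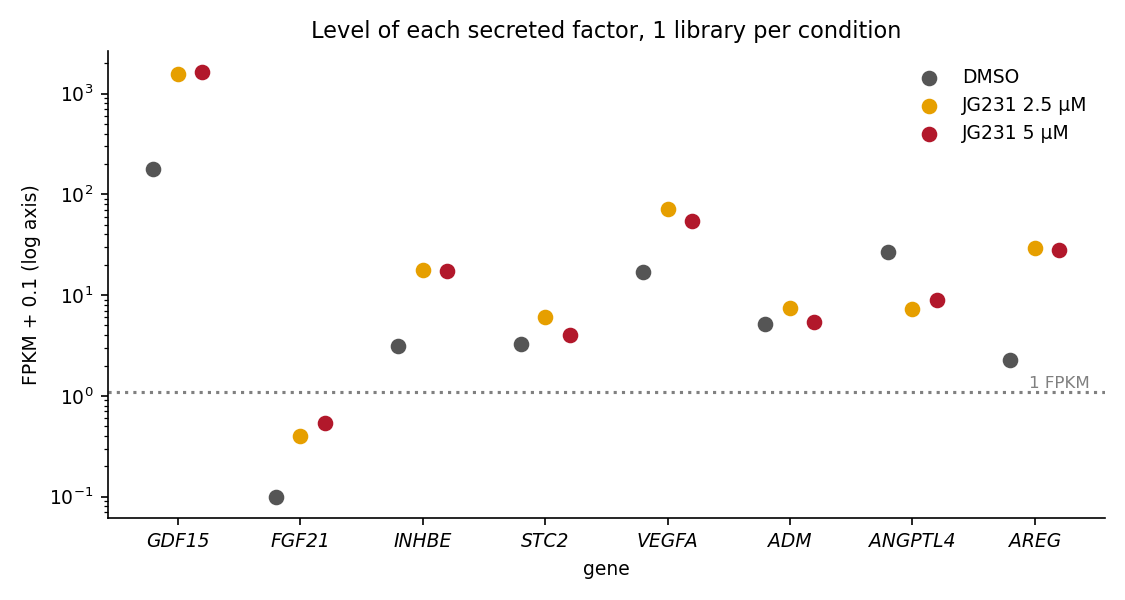
FPKM plus 0.1 of the 8 members (log axis, so that 0 is drawn at 0.1) in the DMSO, 2.5 μM JG231 and 5 μM JG231 libraries, 1 point per library. GDF15, AREG, INHBE and VEGFA lie higher in both JG231 libraries, ANGPTL4 lies lower in both, and FGF21 stays under 1 FPKM.

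GDF15, a distant member of the TGF-β superfamily whose circulating level rises in mitochondrial and proteotoxic stress, was the most abundant of the group in every library. The DMSO library had 178.6 FPKM, the 2.5 μM library 1572 FPKM and the 5 μM library 1637 FPKM. Both JG231 libraries were thus far above DMSO and close to each other. The fold was 8.80 at 2.5 μM and 9.17 at 5 μM, or log2 changes of 3.14 and 3.20, and the 95% interval from counting error alone was 3.15 to 3.25 at 5 μM. Its place in the order of all genes by FPKM was 121 with vehicle, 13 with 2.5 μM and 15 with 5 μM. GDF15 made up 75.8% of the summed FPKM of the 8 members in DMSO, 91.9% at 2.5 μM and 93.3% at 5 μM. GDF15 (ENSG00000130513, chromosome 19, 18374731 to 18389176, GRCh38) also spans the microRNA gene MIR3189 on the same strand, and fragments of the pair cannot be told apart.

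AREG, the EGF receptor ligand amphiregulin, made as a membrane protein and released by cleavage, had the largest log2 change of the group at either dose. With a pseudocount of 1 it was level with GDF15 at 5 μM, both at 3.189. The AREG gene (ENSG00000109321) spans 74445136 to 74455005 on chromosome 4. Its level was 2.188 FPKM in DMSO, 29.49 FPKM at 2.5 μM and 28.07 FPKM at 5 μM. The DMSO value rested on about 43 fragments and the JG231 values on 741 and 833. AREG was 13.5-fold higher at 2.5 μM and 12.8-fold higher at 5 μM, with counting intervals of 3.32 to 4.25 and 3.25 to 4.17 around log2 changes of 3.69 and 3.62. At 5 μM its change stood at percentile 97.8 of all genes tested, next to GDF15 at 97.4 and INHBE at 96.5. Among the 7 ligands of the EGF receptor family that were examined, AREG held 27.2% of the summed FPKM with vehicle and 82.4% and 81.7% with 2.5 and 5 μM JG231. Of the others, TGFA was at 2.668, 4.134 and 2.738 FPKM in DMSO, 2.5 μM and 5 μM, while HBEGF remained under 1 FPKM and EREG was listed at 0.

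INHBE encodes the activin βE subunit, a hepatokine of the activin family. Its level was 3.01 FPKM in DMSO, 17.57 FPKM at 2.5 μM and 17.38 FPKM at 5 μM. The fold was 5.84 at 2.5 μM and 5.78 at 5 μM, and the counting interval at 5 μM was 2.26 to 2.82 on the log2 scale. Both JG231 libraries sat at the same level, with a log2 difference of -0.02 between them. INHBA was at 0.035 FPKM or less and INHBB was listed at 0 in every library. INHBE (ENSG00000139269) lies on chromosome 12, from 57452323 to 57459280. A long noncoding RNA overlaps it on the opposite strand, and whether fragments were counted by strand is not stated, so a share of them could belong to it.

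VEGFA, the vascular endothelial growth factor, was the second most abundant member with JG231. It measured 16.72 FPKM in DMSO, 71.15 FPKM at 2.5 μM and 53.84 FPKM at 5 μM. The highest value was at the lower dose. VEGFA was 4.26-fold higher at 2.5 μM and 3.22-fold higher at 5 μM, with counting intervals of 1.99 to 2.19 and 1.59 to 1.79 on the log2 scale. Its paralog VEGFB changed less and was at 29.57, 34.18 and 41.4 FPKM in the order of dose. The ratio of VEGFA to VEGFB was 0.566 in DMSO, 2.08 at 2.5 μM and 1.30 at 5 μM, so the order of the pair was the opposite with JG231. VEGFA (ENSG00000112715, chromosome 6, 43770184 to 43786487) has 26 transcripts, and an antisense RNA over it was listed at 0 in each library.

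STC2, the glycoprotein stanniocalcin-2 that inhibits the protease PAPP-A, showed a smaller change. Its level was 3.195 FPKM in DMSO, 5.911 FPKM at 2.5 μM and 3.947 FPKM at 5 μM. The log2 change was 0.87 at 2.5 μM, with a counting interval of 0.65 to 1.12, and 0.30 at 5 μM, with an interval of 0.06 to 0.55. As a yardstick, the 500 genes nearest to STC2 in mean FPKM differed between the JG231 libraries with a spread of 0.42 (a robust SD), which is larger than the STC2 change at 5 μM. Scaling the libraries to a common FPKM sum without mitochondrial and small RNA genes turned the 5 μM change to -0.07. STC1, its paralog, was listed at 0. The STC2 gene (ENSG00000113739) lies on the minus strand of chromosome 5, 173314723 to 173328447.

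ADM, the vasodilator peptide adrenomedullin, was at 5.008 FPKM in DMSO, 7.296 FPKM at 2.5 μM and 5.275 FPKM at 5 μM. The log2 change was 0.53 at 2.5 μM, with a counting interval of 0.22 to 0.88. At 5 μM it was 0.07, with an interval of -0.26 to 0.42 that spans no change, and it was -0.30 with the libraries scaled as above for STC2. The gene (ENSG00000148926) lies at 10305073 to 10307397 on chromosome 11. The spread of its 500 neighbours between the JG231 libraries was 0.37. The related peptide genes CALCB and ADM2 were higher at both doses, CALCB at 1.958, 7.618 and 9.469 FPKM and ADM2 at 3.751, 7.186 and 8.806 FPKM in DMSO, 2.5 μM and 5 μM. The share of ADM in the summed FPKM of these peptide genes was therefore 46.7% in DMSO and 22.4% at 5 μM.

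ANGPTL4, an inhibitor of lipoprotein lipase and a known target of PPARs and of hypoxia, was the one member lower at both doses. It measured 26.95 FPKM in DMSO, 7.179 FPKM at 2.5 μM and 8.908 FPKM at 5 μM. ANGPTL4 was 3.75-fold lower at 2.5 μM and 3.03-fold lower at 5 μM, or log2 changes of -1.89 and -1.59, and the counting interval at 5 μM was -1.77 to -1.42. The gene (ENSG00000167772) is on chromosome 19, 8363289 to 8374370. ANGPTL4 was the second most abundant member in DMSO and ranked below VEGFA, AREG and INHBE with 5 μM JG231. Of its family, ANGPTL2 alone was over 1 FPKM, at 2.238, 2.133 and 2.511 FPKM in DMSO, 2.5 μM and 5 μM.

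FGF21, an endocrine fibroblast growth factor known as a readout of ATF4 activity in liver and muscle (ENSG00000105550, chromosome 19, 48755524 to 48758333), was low throughout. Its row held 0 for DMSO, 0.299 FPKM for 2.5 μM and 0.442 FPKM for 5 μM, or about 0, 8 and 14 fragments. Given the DMSO depth, a count of 0 allows up to 0.139 FPKM (3 fragments). The levels are too low for a fold, and counting error alone placed the log2 difference between the doses anywhere from -0.79 to 2.03. Against DMSO the counting interval had a lower end of 0.43 at 2.5 μM and 1.15 at 5 μM, and no upper end. These limits rest on 8 and 14 fragments and 1 library per condition. FGF19 and FGF23, the other endocrine members of the family, were listed at 0.

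**Figure D2:**
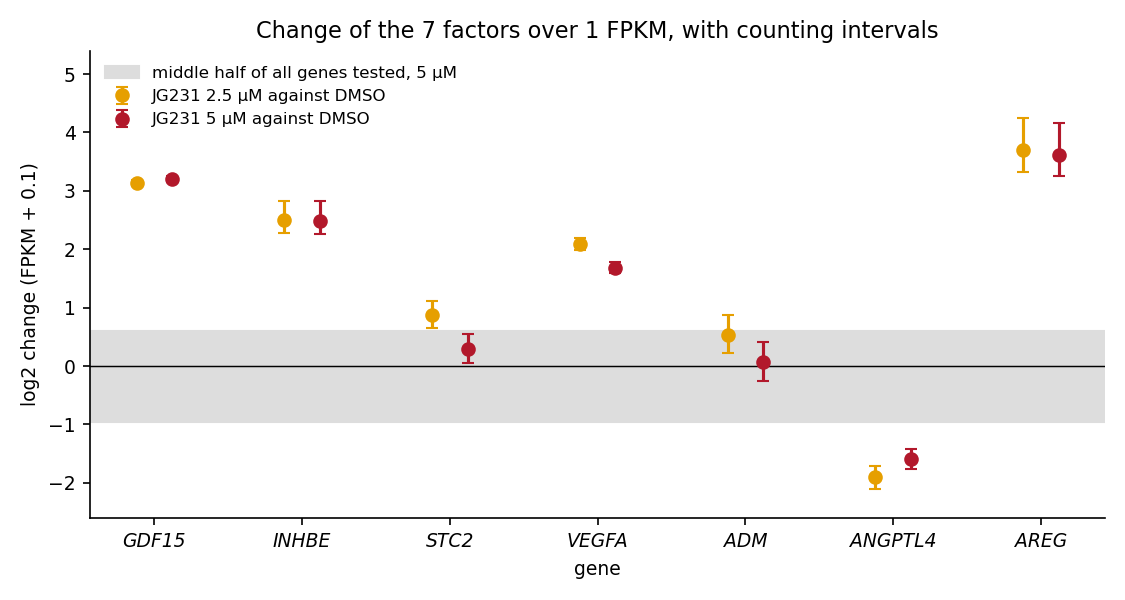
Log2 change in FPKM (pseudocount 0.1) of the 7 members over 1 FPKM at 2.5 μM and 5 μM JG231 against DMSO, with bars for the 95% interval of counting error only and a grey band for the middle 50% of all genes tested at 5 μM (-0.96 to 0.59). AREG and GDF15 lie above 3, ANGPTL4 lies at -1.89 and -1.59, and the interval of ADM at 5 μM spans 0.

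The libraries of the JG231 doses were then compared with each other. Among all 14197 genes tested, 26.8% were higher and 30.1% lower at 5 μM than at 2.5 μM, and 7.47% and 8.09% by more than 2-fold. Of the 7 members, ANGPTL4 was higher by 0.31 on the log2 scale, STC2, ADM and VEGFA were lower at -0.57, -0.46 and -0.40, and GDF15, INHBE and AREG were neither. With a common FPKM sum AREG, at -0.25, just passed as lower, which made 4, and ANGPTL4, at 0.13, was no longer higher. None of the 7 differed by more than 2-fold. Differences of the 3 lower members exceeded the spread of 500 genes of similar level for STC2 (0.42), ADM (0.37) and VEGFA (0.21). That spread is 1 robust SD, which many genes pass, so passing it does not set a gene apart. The 3 differences stood at percentiles 15.0, 18.7 and 21.1 of all genes tested. The ANGPTL4 difference did not exceed that spread (0.34), nor did those of GDF15 (0.06 against 0.19) and AREG (-0.07 against 0.26).

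**Figure D3:**
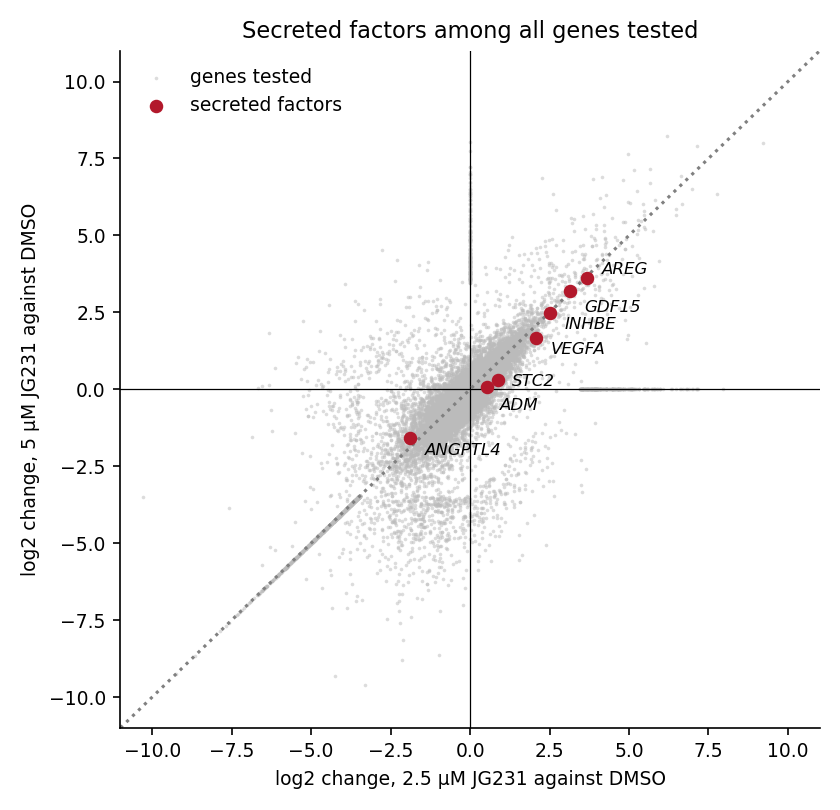
Log2 change at 2.5 μM JG231 (x axis) against that at 5 μM JG231 (y axis), both relative to the same DMSO library, for the genes tested (grey) and the 7 members (red), with a dotted line of equal change. VEGFA, STC2 and ADM fall below that line, and ANGPTL4 sits alone among the members in the lower left.

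The receptors and binding partners of the members were mostly lower with JG231. Of 28 such genes, 17 passed the filter, and at 5 μM 14 of them were lower (45.1% of all genes) and only RAMP1 was higher (36.5%), with a median log2 change of -0.97 against -0.11 over all genes. At 2.5 μM 14 were lower (43.4% of all genes), ACVR2A (1.442 FPKM in DMSO, 1.769 at 2.5 μM) and FGFR2 (2.157 and 3.064) were higher (36.4% of all genes), and the median was -0.67 against -0.08 over all genes. RET, the signaling partner of the GDF15 receptor, was at 26.43 FPKM in DMSO, 7.323 FPKM at 2.5 μM and 4.847 FPKM at 5 μM, a log2 change of -2.42 at the higher dose. GFRAL, which binds GDF15 itself, was listed at 0 with vehicle and with 5 μM, and at 0.308 FPKM with 2.5 μM.

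For AREG, the kinase-impaired receptor ERBB3 was at 35.7 FPKM in DMSO, 10.31 FPKM at 2.5 μM and 11.08 FPKM at 5 μM. EGFR, which AREG binds, had a level of 2.522 FPKM in DMSO and 1.54 FPKM at 5 μM, and ERBB2 had 4.523 and 3.35 FPKM. The activin type II receptor ACVR2B was at 3.17, 1.606 and 0.623 FPKM in DMSO, 2.5 μM and 5 μM, and the type I receptor ACVR1B at 6.314, 4.46 and 3.857 FPKM. The VEGF receptors FLT1 and KDR did not exceed 0.06 FPKM, while the coreceptor NRP1 was at 6.765 FPKM in DMSO and 2.373 FPKM at 5 μM and NRP2 at 3.905 and 1.178 FPKM.

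Other partners were near the limit of detection. KLB, the coreceptor of FGF21, and GPIHBP1, which anchors lipoprotein lipase, were listed at 0 in each library. CALCRL, the receptor core of adrenomedullin, was at 0.108 FPKM or less, though its accessory protein RAMP1 was at 63.47 FPKM in DMSO, 67.46 FPKM at 2.5 μM and 85.58 FPKM at 5 μM. RAMP2, which directs CALCRL toward adrenomedullin, was lower, at 6.606, 1.881 and 3.258 FPKM. LPL, the lipase that ANGPTL4 inhibits, was at 4.226 FPKM in DMSO and 2.115 FPKM at 5 μM. IGFBP4, which PAPP-A cleaves, was at 5.058 and 3.703 FPKM.

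**Figure D4:**
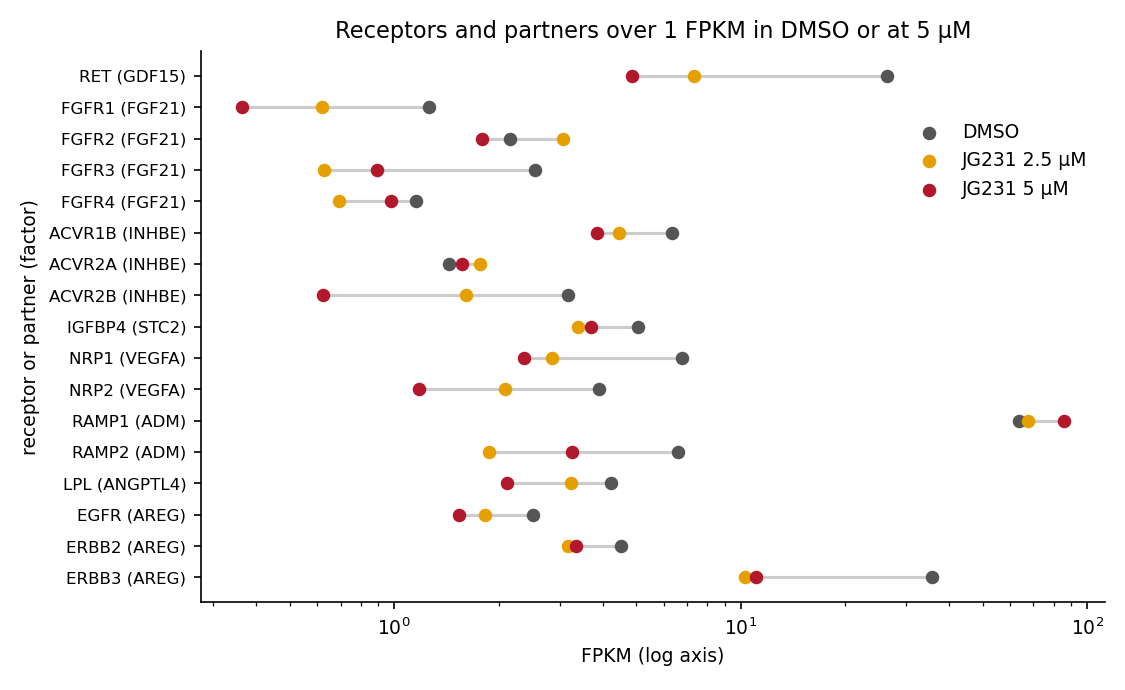
FPKM of the receptors and binding partners over 1 FPKM in DMSO or at 5 μM, with the factor each belongs to in brackets (log axis, 1 point per library, and a grey line over the range of the 3 libraries). RET, ERBB3, NRP1, NRP2 and ACVR2B lie lower with JG231, and RAMP1 lies higher at 5 μM.

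Proproteins of this group need cleavage before they act. The list of 10 processing genes held enzymes and also RHBDF1 and RHBDF2, partners of ADAM17 that are not themselves active enzymes. Of the 10, 7 passed the filter, none was higher and 6 were lower at either dose. Of all genes, 45.1% and 43.4% were lower at 5 and 2.5 μM. For the 7 genes the median was -0.69 at the higher dose and -0.38 at the lower, and for all genes it was -0.11 and -0.08. PAM, which amidates adrenomedullin, was at 18.16 FPKM in DMSO, 7.84 FPKM at 2.5 μM and 6.723 FPKM at 5 μM. FURIN, a proprotein convertase, was at 17.64, 11.57 and 11.64 FPKM. ADAM17, the main sheddase of AREG, was the one of the 7 that was neither, at 5.638, 5.15 and 6.321 FPKM, and RHBDF1, which brings ADAM17 to the cell surface, was at 19.48 FPKM in DMSO and 12.04 FPKM at 5 μM.

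The regulators of the members were examined by pathway. Among 13 regulators of the ISR, 10 were higher and 2 lower at 5 μM, against 36.5% and 45.1% of all genes, with a median log2 change of 1.87. ATF4 was at 90.62 FPKM in DMSO, 278.0 FPKM at 2.5 μM and 330.9 FPKM at 5 μM. DDIT3 (CHOP), a transcription factor downstream of ATF4, was at 24.78, 337.9 and 396.8 FPKM, and PPP1R15A (GADD34), which directs dephosphorylation of eIF2α, at 6.632, 80.81 and 102.5 FPKM. ATF3 was at 12.85, 151.9 and 191.3 FPKM and CEBPB at 54.72, 434.5 and 497.5 FPKM. The 2 lower ones were the eIF2α kinases EIF2AK2 (11.04 FPKM in DMSO, 6.134 at 5 μM) and EIF2AK4 (3.156 and 1.79). XBP1, ATF6 and ERN1 of the unfolded protein response were all higher at both doses, with XBP1 at 47.07 FPKM in DMSO and 139.0 FPKM at 5 μM.

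Among 8 regulators of the hypoxia response, HIF1A and EGLN1 were higher and 4 were lower at 5 μM, against 36.5% and 45.1% of all genes, with a median of -0.44. HIF1A reached 51.49 FPKM at 2.5 μM and 42.15 FPKM at 5 μM, log2 changes of 0.78 and 0.49. MDM2, a ubiquitin ligase, was lower, at 9.462, 6.81 and 5.619 FPKM. PPARD was at 7.364 FPKM in DMSO and 4.895 FPKM at 5 μM, PPARA was at 1.152 and 0.638 FPKM, and PPARG was listed at 0. JUN, an immediate early transcription factor, was at 133.5, 363.7 and 424.3 FPKM in DMSO, 2.5 μM and 5 μM.

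Other targets of each pathway, without the 8 members, were counted in the same way. Of 25 ISR targets that passed, 20 were higher at 5 μM (36.5% of all genes), 16 by more than 2-fold (14.7% of all genes), and the median log2 change was 1.38. CEBPB, CEBPG, ATF5 and NUPR1 stand both in this list and among the 13 ISR regulators, and all 4 were higher at 5 μM, so the counts overlap. TRIB3, a pseudokinase, was at 5.575 FPKM in DMSO and 162.9 FPKM at 5 μM, SLC3A2, an amino acid transporter subunit, at 38.04 and 486.8 FPKM, and SESN2, a stress sensor upstream of mTORC1, at 4.068 and 41.03 FPKM. The single lower one was CTH of cysteine synthesis (1.931 and 0.671 FPKM). At 2.5 μM 20 of the 25 were higher (36.4% of all genes) and none was lower (43.4%), but the genes differed in part, since ATF5 was higher at 5 μM only and SLC7A1 at 2.5 μM only. The 5 members that the ISR list also holds are GDF15, FGF21, INHBE, STC2 and VEGFA.

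Hypoxia targets did not move together. Of 24 that passed, 5 were higher and 11 lower at 5 μM, against 36.5% and 45.1% of all genes, with a median of -0.18, near the -0.11 of all genes. At 2.5 μM 7 were higher and 10 lower, against 36.4% and 43.4% of all genes, with a median of -0.06. P4HA2, a collagen prolyl hydroxylase, was higher (5.871 FPKM in DMSO, 14.45 at 5 μM), while the hexokinase HK2 (6.355 and 2.419), the adenylate kinase AK4 (2.584 and 1.086) and the lysyl hydroxylase PLOD2 (21.07 and 9.507) were lower. CA9, a carbonic anhydrase strongly tied to hypoxia, was listed at 0. The list also holds VEGFA, ADM and ANGPTL4, which differed from each other in the same way: one more than 2-fold higher, one neither and one more than 2-fold lower at 5 μM.

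Of 22 p53 targets that passed, 12 were higher and 6 lower at 5 μM, against 36.5% and 45.1% of all genes, with a median of 0.58. At 2.5 μM 13 were higher and 4 lower, against 36.4% and 43.4% of all genes, with a median of 0.64. Besides SESN2, the largest changes among them were in GADD45A, a stress sensor that slows the cell cycle (66.04 FPKM in DMSO, 535.3 at 5 μM), BBC3, the proapoptotic PUMA (6.099 and 36.87), and TNFRSF10B, the death receptor DR5 (7.966 and 31.23). GADD45A, BBC3, TNFRSF10B and SESN2 are also known targets of ATF4 or CHOP. The 6 lower p53 targets at 5 μM were ZMAT3, TP53INP1 (16.01 FPKM in DMSO, 7.761 at 5 μM), FAS, MDM2 (9.462 and 5.619), FDXR and POLH. Of 14 PPAR targets that passed, 5 were higher and 8 lower at 5 μM, against 36.5% and 45.1% of all genes, with a median of -0.32. At 2.5 μM 4 were higher and 6 lower (36.4% and 43.4% of all genes) with a median of -0.06, close to the -0.08 of all genes. Of the genes of fatty acid uptake and oxidation, FABP3 (5.998 FPKM in DMSO, 0.932 at 5 μM), EHHADH (5.092 and 1.247), CPT1A (14.77 and 7.033) and CPT2 (3.973 and 1.952) were lower, while ACSL1 (9.229 and 16.37), SLC25A20 (2.195 and 3.418), ETFDH (1.771 and 2.35), ACADM (13.05 and 15.84) and the lipid droplet protein PLIN2 (9.35 and 14.25) were higher.

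**Figure D5:**
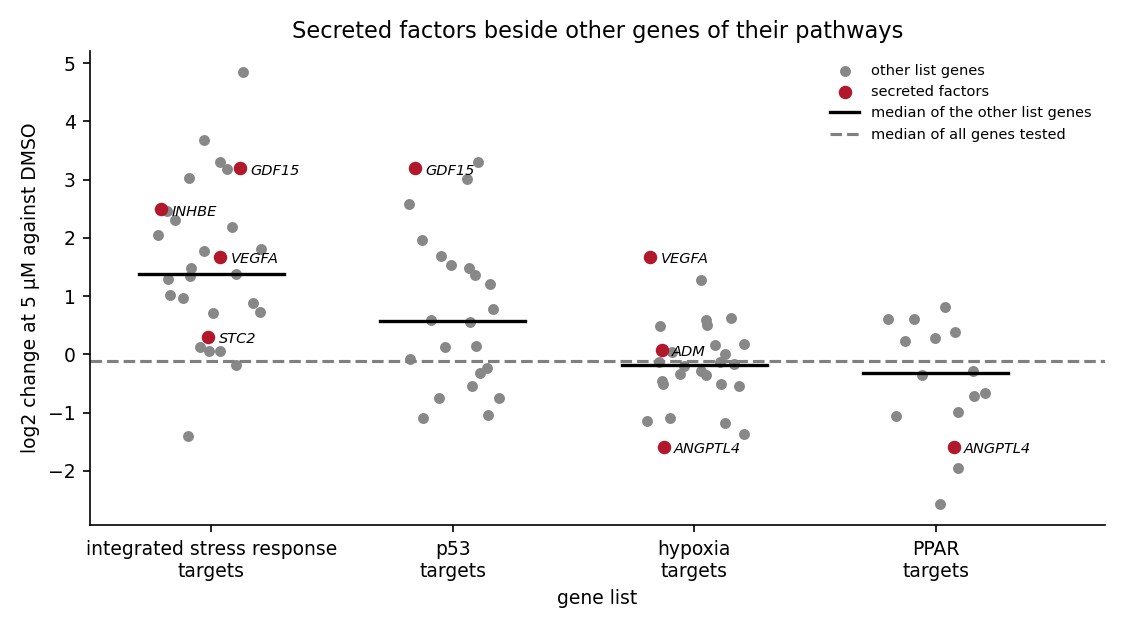
Log2 change at 5 μM JG231 against DMSO (y axis) of each gene that passed the filter in the lists of ISR, p53, hypoxia and PPAR targets, with the secreted factors in red. Black bars are the medians without the factors, from 1.38 for ISR targets to -0.32 for PPAR targets, and the dashed line is the median of all genes, -0.11.

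For each member, the genes with the most similar pair of log2 changes at 2.5 μM and 5 μM were sought among 7962 protein-coding genes over 5 FPKM in a library. Nearest to GDF15 was RPL22L1, a ribosomal protein paralog, at 4.971, 42.31 and 46.21 FPKM in DMSO, 2.5 μM and 5 μM, followed by CEBPB and by HSPA6, a stress-inducible HSP70. SLC3A2 was nearest to AREG, at a distance of 0.206 log2 units. INHBE lay closest to RELB of the NF-κB family (5.817, 31.96 and 33.39 FPKM), EMC6 and FOXD1. For VEGFA these included OTUD1, a deubiquitinase at 14.67, 60.18 and 47.74 FPKM, and TM6SF1, which shared the higher level at 2.5 μM. POLM, TMBIM1 and UFSP2 were nearest to STC2, and CAMSAP1, TBCCD1 and ASCC3 to ADM. The neighbours of ANGPTL4 included LPIN3, a phosphatidate phosphatase at 8.60, 2.278 and 2.784 FPKM, and the neuroendocrine enzyme DDC at 15.32, 3.882 and 4.93 FPKM. Each likeness rests on 2 differences that share the DMSO library.

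Transcript length moved with the changes across all genes, and these values stand beside those of the members. The 500 genes nearest in length to GDF15 had a median of 0.52 in log2 change at 5 μM, those nearest to AREG 0.51, to ADM and ANGPTL4 0.34 each, to INHBE 0.17, to STC2 -0.09 and to VEGFA -0.10. The changes of GDF15, AREG, INHBE and VEGFA exceeded these values by more than 1 log2 unit, and ANGPTL4 lay on the other side of them. When the length trend was removed, the log2 change of ADM at 5 μM was -0.33.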

How the data were processed

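RNA-seq of H660 cells was analysed, with 1 library each for DMSO, 2.5 μM JG231 and 5 μM JG231. The authors deposited 1 table of FPKM per gene. The methods name HISAT and StringTie, and the submitters' processing notes name HISAT2 and featureCounts with GRCh38 (hg38). Versions, and whether counting used the strand, are not given in the sources used here, and RNA input differs between them. FPKM values are not counts, so no count model was applied. Identifiers were looked up in GENCODE release 44 (58207 of 58735), and 27 rows with a date for a symbol were named by identifier.

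Changes were log2 ratios of FPKM with a pseudocount of 0.1. Genes over 1 FPKM in either library were tested against a log2 threshold of 0.25. Depth came from the steps of FPKM times exon length in genes with 1 transcript and fewer than 50 fragments, where values were whole to within 0.1 of a fragment for 90.5% of 4729 genes in DMSO, 88.2% of 3252 at 2.5 μM and 86.7% of 2026 at 5 μM. Fragments per gene used the canonical transcript length and are approximate. Intervals are 95% exact binomial (Clopper-Pearson) intervals of the ratio and cover counting error only.

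The members and lists were chosen with earlier results of these data known. Named genes were the 8 members, their receptors and regulators, in each list the 4 genes of largest change at 5 μM whose sign was shared by both doses, and the 3 genes nearest in pattern to each member. Some genes under this rule are not reported here. Genes named outside this rule, such as CTH, ANGPTL2 and the higher PPAR targets, were chosen after their values were seen, as were the promoter motifs. Alternatives were other pseudocounts, filters, scalings and thresholds, and, added after the data were seen, removal of a lowess trend on length. The script was tested on simulated data. Python 3.11.15, pandas 2.3.3, scipy 1.17.1 and statsmodels 0.14.6 were used.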

Additional observations from a re-analysis of the deposited data

How the results depend on the processing

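The log2 change of STC2 at 5 μM, which had passed the threshold, changed sign under 1 alternative. Changes that had not passed it (ADM at 5 μM against DMSO, GDF15 and INHBE at 5 μM against 2.5 μM) also took the other sign under some alternatives. The direction of GDF15, INHBE, VEGFA, AREG and ANGPTL4 against DMSO was the same under all alternatives run. At 5 μM their log2 changes ranged from 2.71 to 3.31, 2.12 to 2.60, 1.30 to 1.79, 3.15 to 3.73 and -1.96 to -1.48. With libraries scaled to a common FPKM sum without mitochondrial and small RNA genes, the median of all genes at 5 μM went from -0.11 to -0.53 and at 2.5 μM from -0.08 to -0.40, and the higher share of called genes from 44.7% to 27.6% and from 45.6% to 30.4%. With a mean FPKM of at least 5 those shares were 62.2% and 62.1%. Under that scaling STC2 at 5 μM turned to -0.073 and ADM to -0.30, and 2 members were lower at 5 μM, as they also were with the length trend removed. In the comparison of 5 μM with 2.5 μM, 2 members were higher with no filter on low values and 0 were higher under a common FPKM sum, that sum without mitochondrial and small RNA genes, a threshold of 1 or the length trend removed, while 0 were lower with a threshold of 1. Beyond the construction of each alternative, the cause was not tested. No paired analysis was possible because each condition has 1 library, and no library could be left out.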

Other observations

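MIR3189, a microRNA gene inside GDF15 on the same strand, was listed at 0 FPKM in DMSO, 14.12 FPKM at 2.5 μM and 23.91 FPKM at 5 μM. On its annotated length of 73 bases these values correspond to about 0, 21 and 42 fragments. Fragments of the GDF15 transcript and of the microRNA precursor cannot be told apart in this table.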
